A study of Mus musculus with 2 samples.

Results

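The genes described here are 10 genes of the canonical Wnt pathway: the R-spondin receptors Lgr4 and Lgr5 and the beta-catenin target genes Axin2, Apcdd1, Lef1, Tcf7, Znrf3, Rnf43, Nkd1 and Notum. They were chosen by name, and a gene was represented by every probe set that the platform annotation assigns to it alone. Of 18193 genes with such a probe set, 9 were of this group, with 22 probe sets among them. Tcf7 had no probe set of its own in the annotation and was not analysed here. The samples were uterine epithelial cells of C57BL/6 mice taken on day 4 of pregnancy, when the uterus becomes receptive to the blastocyst. The control array came from mice with floxed Msx1 and Msx2, and the null array from mice in which both floxed genes had been deleted with PRcre. PRcre is a Cre recombinase expressed from the progesterone receptor locus, so deletion is not limited to the epithelium but can occur in any uterine cell that expresses the receptor. The labels do not say whether the floxed controls carried Cre. They give 5 mice per genotype, but the extraction text names stromal cells from 4 mice, and no label says whether RNA was pooled. With 1 array per genotype there is no replicate check and no test, and every difference below compares these 2 arrays.

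Canonical Wnt signals stop the destruction of beta-catenin, which then enters the nucleus and activates genes together with transcription factors of the TCF/LEF family. Several of the activated genes encode brakes on the pathway, so their RNA is widely used as a readout of it. R-spondins act through LGR receptors to remove the ubiquitin ligases ZNRF3 and RNF43 from the cell surface, which preserves Frizzled receptors and strengthens the response to Wnt. In the uterus, Wnt signalling takes part in gland formation, in exchanges between stroma and epithelium and in implantation.

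The targeted genes were checked first. Msx1 had signals of 3474 for the control array and 42.3 for the null one, and Msx2 had 63.4 and 23.6. Both were lower in the null, although the deleted exons are not named in the labels, so it is not known whether the probe sets lie in them. Signals are MAS5 intensities in arbitrary units. The floor, below which a signal was treated as unmeasured, was 21.1, the 50th percentile of all signals of non-control probe sets. Measurement error could be gauged only from how far probe sets of 1 gene disagreed, whose log2 differences had a standard deviation of 0.38 over 4645 genes. That gauge contains no spread between mice. The median log2 difference of all 11662 measured genes, null minus control, was 0.08. It moved to -0.19 when the arrays were set equal on 18 hybridization spike-in probe sets. All 8 markers of uterine epithelium, among them Epcam and Cdh1, exceeded the floor on each array and were within 2-fold between the arrays. The 10 markers of stroma were all above the floor on each array too, so RNA of both compartments was detected.

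Of the 9 genes measured, Apcdd1, Axin2 and Notum were at least 2-fold higher on the null array, and Lgr5 was at least 2-fold lower. Over all genes measured, 7.73% were higher and 4.75% lower by that threshold. Lgr4, Znrf3 and Rnf43 were within 2-fold. Lef1 and Nkd1 were each below the floor on 1 array, so whether they passed 2-fold was not settled. Their bounds were at least 1.72-fold higher and at least 1.91-fold lower. The median log2 difference of the 9 genes was 0.77, with 6 above 0 and 3 below. Among all genes measured, 57.0% were above 0. The extremes were Apcdd1 at 2.74 and Lgr5 at -3.01, so the group did not move in 1 direction. In bulk RNA such as this, fewer cells of a type and less RNA per cell cannot be told apart.

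**Figure D1:**
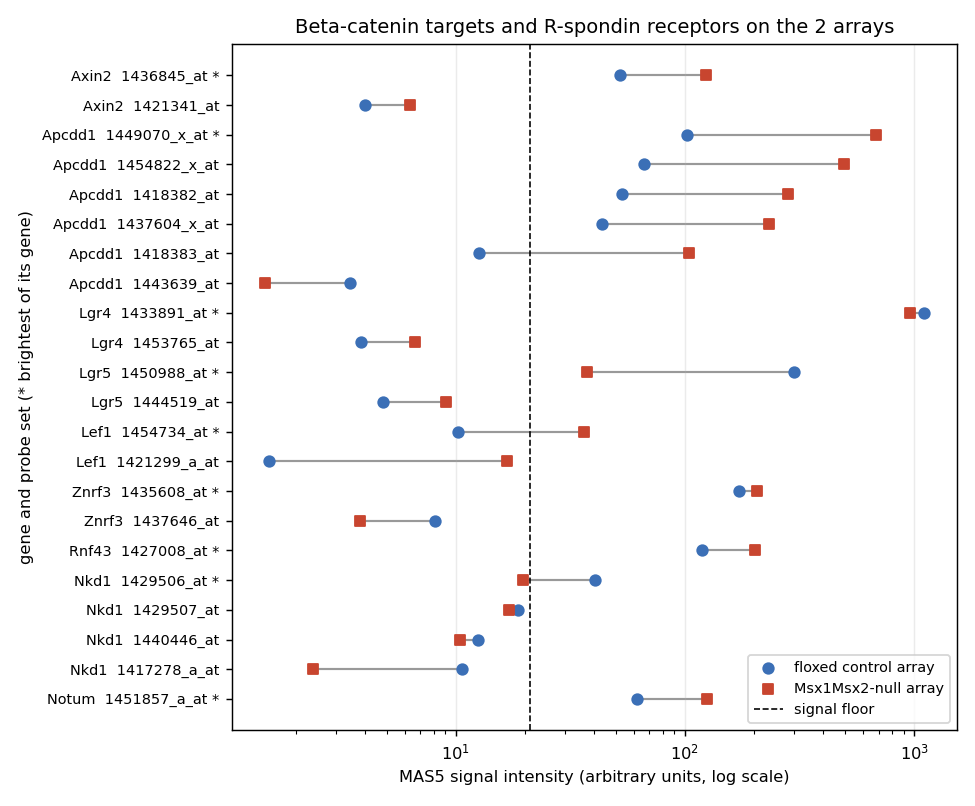
Signal intensity (log axis, arbitrary units) of each of the 22 probe sets on the floxed control array (blue circles) and the Msx1Msx2-null array (red squares), with the floor of 21.1 dashed and the brightest probe set of each gene starred. The Apcdd1 probe sets above the floor lie to the right on the null array, the bright Lgr5 probe set lies to the left, and the bright Lgr4 pair nearly coincides.

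Of the 22 probe sets, 10 exceeded the floor on each array, 2 on the null array alone, 1 on the control array alone and 9 on neither. The 9 below the floor on both arrays were not compared. Of the 13 compared, the null was higher by 2-fold or more at 7 and lower at 1. Over all probe sets measured these shares were 5.82% and 8.07%. However, 5 of the 7 higher probe sets belong to Apcdd1, and probe sets of 1 gene share the same RNA, so they are not separate evidence.

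The receptors came out differently from each other. Lgr5, a receptor for R-spondins that marks stem cells in several epithelia, had a signal of 300.4 for the control array and 37.2 for the null one. The null signal was 8.07-fold lower, a log2 difference of -3.01, and ranked 15th from the lowest of all genes measured. Among the 6852 genes whose brighter array was at least 8 times the floor, as for Lgr5, 5.04% were at least 2-fold lower. The second Lgr5 probe set read 4.79 and 9.05, below the floor on both arrays, so the difference rests on 1 probe set. Lgr4, the more widely expressed relative that also binds R-spondins, had a signal of 1109 for the control array and 954.9 for the null one. That is a log2 difference of -0.22, smaller than the standard deviation of 0.38 between probe sets of the same gene. Lgr6, the third receptor of the family, was below the floor on both arrays with both of its probe sets.

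Markers of the epithelial compartments stood as follows beside Lgr5. The 4 measured markers of luminal epithelium, Calb1, Wnt7a, Lpar3 and Klf5, were within 2-fold by their brightest probe sets, with a median log2 difference of -0.19. The other 3 Calb1 probe sets gave -0.59, -0.74 and -1.12, against 0.16 at the brightest, and a second Klf5 probe set gave -1.10 against -0.29. The summed signal of these 4 markers, by their brightest probe sets, was 16233.6 for the control array and 16156 for the null one. Most of that sum was Calb1, at 11067.6 and 12344.7. Wnt7a, Lpar3 and Klf5 were lower in the null, at -0.10, -0.56 and -0.29. Of the 5 measured gland markers, Cxcl15 and Foxa2 were 4.61-fold and 2.40-fold higher in the null, whereas Spink1 was at least 6.69-fold lower. Over all genes measured, 7.73% were at least 2-fold higher and 4.75% at least 2-fold lower. With spike-in scaling Cxcl15 alone was at least 2-fold higher and Spink1 alone at least 2-fold lower. The shares over all genes were then 5.01% and 8.72%. Prss29 had a bound of 0.999 on the log2 scale, just under 2-fold and past it with array medians, quantile or loess scaling, and Lif stood at 0.34. The median log2 difference of the 5 gland markers was 0.999, with 4 of 5 above 0, where 57.0% of all genes measured were. The summed signal of all 7 gland markers was 271 and 363. Gland markers Prss28 and Ttr were below the floor on both arrays. The part of cell composition in the Lgr5 difference was not tested.

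Of the 4 R-spondin ligands, Rspo1 and Rspo3 could be compared. Rspo1 had signals of 128.1 and 102 and a log2 difference of -0.33, within the gauge of error. Rspo3, at 29.3 and 6.66, lay below the floor on the null array, a bound of at least 1.38-fold lower. Rspo2 and Rspo4 were below the floor on both arrays. The Wnt co-receptor Lrp6 had signals of 337.5 and 216.2 by its brighter probe set, a log2 difference of -0.64. Its second probe set gave 0.28, so its direction was not settled. Lrp5, the other co-receptor, was below the floor on both arrays. None of the 3 measured genes of this list of 7 reached 2-fold, and their median log2 difference was -0.47. Rspo3 could not reach it by construction, as its brighter signal was under 2 times the floor. With a floor at the 33rd percentile, 1 gene of the list was at least 2-fold lower. The median was -0.02 with a pseudocount in place of the floor. Over all genes measured, 7.73% were at least 2-fold higher and 4.75% at least 2-fold lower.

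The ubiquitin ligases that clear Frizzled receptors showed smaller differences than either Lgr5 or Apcdd1. Rnf43 had signals of 119 for the control array and 202.7 for the null one. It was 1.70-fold higher in the null, a log2 difference of 0.77 at the 88.1 percentile of all genes measured. Znrf3 had signals of 172.9 and 206.9, a log2 difference of 0.26 that lies within the gauge of error and turned to -0.02 with spike-in scaling. Rnf43 has only 1 probe set, and the second Znrf3 probe set was below the floor on both arrays.

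**Figure D2:**
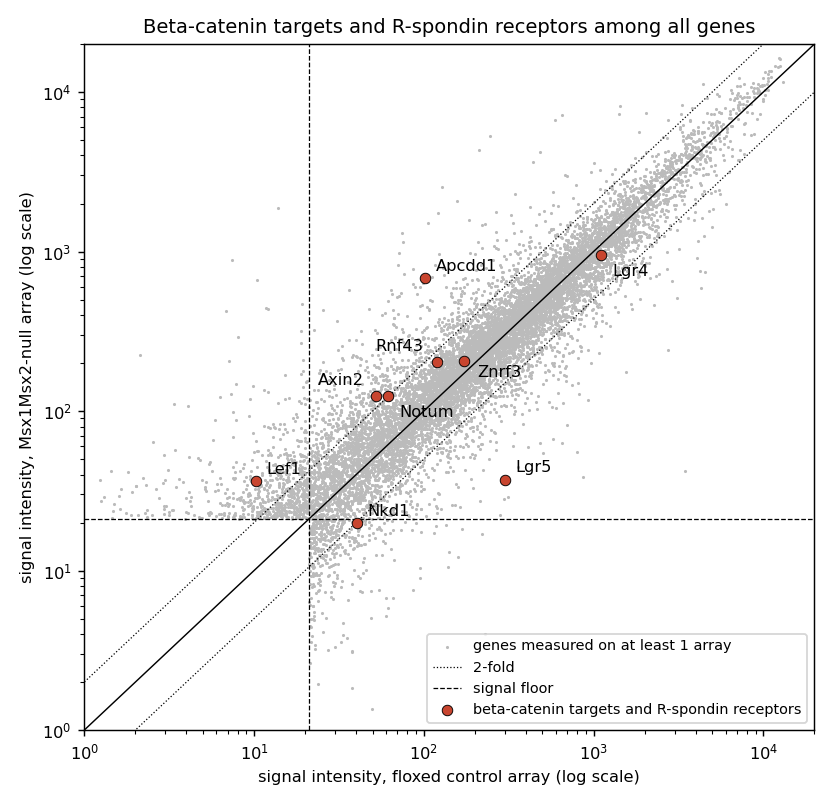
Signal intensity on the null array against that on the control array (log axes) for all 11662 genes measured (grey) and for the 9 beta-catenin targets and R-spondin receptors (red), each by its brightest probe set. Apcdd1 stands far above the upper 2-fold line and Lgr5 far below the lower one, Axin2 and Notum lie on or just past the upper line, and Lef1 and Nkd1 sit beside the dashed floor.

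Among the secreted and membrane antagonists, Apcdd1 had the largest excess. Apcdd1 encodes a membrane glycoprotein that binds Wnt and its co-receptor and inhibits signalling. Its brightest probe set read 102.1 for the control array and 680.4 for the null one, 6.66-fold higher. That log2 difference of 2.74 ranked 68th from the highest of all genes measured. Of genes whose brighter array was at least 8 times the floor, 6.65% were at least 2-fold higher. Apcdd1 is the member with the most probe sets, so the size can be read several times. The other 3 probe sets measured on each array read 66.4 and 493.8, 53.3 and 280.2, and 43.3 and 233.2. The log2 differences of these 4 probe sets ran from 2.39 to 2.89. In 3 of the 4, the identifier carries the suffix for sequence that may be shared with other transcripts. The one without it, at 53.3 and 280.2, was 5.26-fold higher. Another was below the floor in the control, at 12.6 against 104.4, with a bound of at least 4.94-fold. The last was below the floor on both arrays.

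Notum, a secreted enzyme that removes the lipid from Wnt proteins and so inactivates them, had a single probe set. It read 61.8 for the control array and 124.9 for the null one. The null was 2.02-fold higher, a log2 difference of 1.02, just past the threshold. With spike-in scaling it was 0.74, and with the higher floor described below 0.78. Among genes with brighter signals of 4 to 8 times the floor, the range that holds Notum and Axin2, 12.3% were at least 2-fold higher.

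Axin2 encodes a scaffold of the beta-catenin destruction complex and is the target gene most often used as a readout of the pathway. Its brighter probe set read 52.3 for the control array and 123.9 for the null one. That is 2.37-fold higher, a log2 difference of 1.25 at the 94.9 percentile of all genes measured. The other probe set, at 4.02 and 6.31, was below the floor on both arrays. With spike-in scaling the log2 difference was 0.97, under the 2-fold threshold. The 250 bases before the annotated Axin2 start site in RefSeq (GRCm38.p6, chr11:108920099-108920348, plus strand) are shown because Axin2 is the classical reporter gene of TCF/LEF factors.
Axin2: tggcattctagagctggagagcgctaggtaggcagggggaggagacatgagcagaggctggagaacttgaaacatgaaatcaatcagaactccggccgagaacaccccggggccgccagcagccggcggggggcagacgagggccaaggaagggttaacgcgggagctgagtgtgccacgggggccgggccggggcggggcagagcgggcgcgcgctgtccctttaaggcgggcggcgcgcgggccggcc
The core TCF/LEF motif was searched on both strands as CTTTGA or CTTTGT, and a homeobox core of the type bound by Msx proteins as TAATTG. No matches of the motifs overlapped. The Axin2 window held a match to neither, and G and C made up 69.2% of it against a median of 52.4% over all windows. Of 32851 promoter windows of the same length, 27.6% held the TCF/LEF core and 7.17% the homeobox core.

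Nkd1, an inhibitor that binds Dishevelled and is induced by Wnt in many tissues, ran opposite to Axin2. Its brightest probe set read 40.4 for the control array and 19.7 for the null one. The null signal was below the floor, so the gene was at least 1.91-fold lower, a log2 bound of -0.93. The other 3 probe sets were below the floor on both arrays. Its paralog Nkd2 read 34.1 and 20.8, at least 1.61-fold lower. For Nkd1 and Lef1 the brighter array was under 2 times the floor, where a 2-fold difference cannot arise by construction, and none of the 1469 genes in that range had one.

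Of the transcription factors, Lef1 could be measured on the null array alone. LEF1 is the nuclear partner of beta-catenin whose own gene is a Wnt target. Its brighter probe set read 10.3 for the control array and 36.3 for the null one, at least 1.72-fold higher. Its second probe set read 1.53 and 16.8, below the floor on both. Lef1 had several annotated start sites, and some of its windows overlap. Among the 11 windows searched, 1 of Lef1 alone held a TCF/LEF core match. That share is not above the 27.6% of all promoter windows. Windows of Lef1 are shown for that match. The first lies at the 5′ end of the gene (GRCm38.p6, chr3:131110047-131110296, plus strand). The second lies before a start site further downstream (chr3:131156044-131156293, plus strand), with the matches in capitals.
Lef1 upstream: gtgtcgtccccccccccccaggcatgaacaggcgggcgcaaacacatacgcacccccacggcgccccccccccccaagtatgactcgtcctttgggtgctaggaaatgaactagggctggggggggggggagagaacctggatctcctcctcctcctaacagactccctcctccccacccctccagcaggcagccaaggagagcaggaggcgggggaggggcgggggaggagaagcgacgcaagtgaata
Lef1 downstream: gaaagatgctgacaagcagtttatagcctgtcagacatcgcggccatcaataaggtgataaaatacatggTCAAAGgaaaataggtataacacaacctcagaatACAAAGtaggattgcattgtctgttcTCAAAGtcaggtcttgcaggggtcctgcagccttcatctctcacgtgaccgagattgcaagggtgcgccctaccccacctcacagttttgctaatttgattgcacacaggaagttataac
The downstream window held 3 matches, all in the reverse complement orientation, beginning 180, 146 and 120 bases before the start site. Windows were searched for 6 of the 10 genes, Lgr4, Lef1, Nkd1, Tcf7, Rnf43 and Axin2, 11 windows in all. The homeobox core was found in none of them. No window of Apcdd1, Lgr5, Znrf3 or Notum was part of the search. A match of 6 letters is a description of the sequence and not a binding site, and the array does not tell which start site was used.

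The measured paralogs of Lef1 were within 2-fold. Tcf7l1, mostly a repressor of Wnt targets, had probe sets at -0.16 and 0.15 on the log2 scale. Tcf7l2, the main TCF of many epithelia, had signals of 172.4 and 148.2 by its brightest probe set, a log2 difference of -0.22. Its further measured probe sets gave -0.80 and 0.43, so its direction was not settled.

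Further genes of the pathway were taken from 4 lists. Over all genes measured, 7.73% were at least 2-fold higher and 4.75% at least 2-fold lower. None of the 11 measured genes of the destruction complex and Dishevelled, of 13 listed, reached 2-fold in either direction by its brightest probe set. Their median log2 difference was -0.01. Axin1, the constitutive counterpart of Axin2, had signals of 267.8 and 303.9 and a log2 difference of 0.18. Apc, the tumour suppressor scaffold of the complex, read 886.5 and 489.6 at its brightest probe set, 1.81-fold lower. Its other probe sets measured on each array gave -0.90 and -1.06. With spike-in scaling, Apc passed the 2-fold threshold, and the median of the list was -0.29. Gsk3b, the kinase that marks beta-catenin for destruction, had a log2 difference of 0.00 by the brightest of its 6 probe sets, which spanned -1.16 to 0.37. A further Csnk1a1 probe set gave -1.06, against 0.15 at the brightest.

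Among beta-catenin and its nuclear partners, 1 of 11 measured genes, of 12 listed, reached 2-fold by its brightest probe set. Ctnnb1, which encodes beta-catenin itself, had signals of 6451 and 6912 by its brightest probe set, a log2 difference of 0.10. Its other probe sets gave -0.12 and -0.32, all within the gauge of error. Tle2, a Groucho-type corepressor that binds TCF factors, was 4.10-fold lower, from 174.5 to 42.5, by its only probe set. The related corepressor Tle1 had log2 differences of -0.72 and -0.70 at its 2 probe sets, and Tle4 stood at 0.61. Ctnnbip1, which blocks the binding of beta-catenin to TCF, was 1.82-fold higher. A second Bcl9 probe set gave 1.16, against 0.00 at the brightest. The median of this list was 0.00, and -0.28 with spike-in scaling.

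Other published beta-catenin targets went both ways. Of 16 measured genes, from 24 listed, 5 were at least 2-fold higher and 3 at least 2-fold lower, with a median log2 difference of 0.38. Over all genes measured the shares were 7.73% and 4.75%. With spike-in scaling 15 were measured, with 4 higher, 3 lower and a median of 0.12. Under that scaling the shares over all genes were 5.01% and 8.72%. Mmp7, a matrix metalloproteinase, read 64.2 for the control array and 277 for the null one, 4.31-fold higher. Ccnd1, which encodes cyclin D1, was higher at all 3 probe sets, between 1.33 and 1.55 on the log2 scale. Id2, an inhibitor of helix-loop-helix factors that also answers to BMP signals, stood at 1.60 by its brightest probe set, with others at 0.32 and 1.13. Dact1, a Dishevelled-binding protein, was 2.09-fold higher but under 2-fold with spike-in scaling, and Olfm4, below the floor in the control, at least 2.34-fold higher. The lower genes were Jag1, a Notch ligand at -1.42, the ephrin receptor gene Ephb3 at -1.30 and Sox9, a transcription factor of progenitor cells, at -1.17. For Jag1 a second probe set gave -0.53, and for Sox9 a second one gave a bound of -0.57. Sp5, Ascl2, Dkk1, Dkk4, Fosl1, Wif1 and Fgf20 were below the floor on both arrays.

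**Figure D3:**
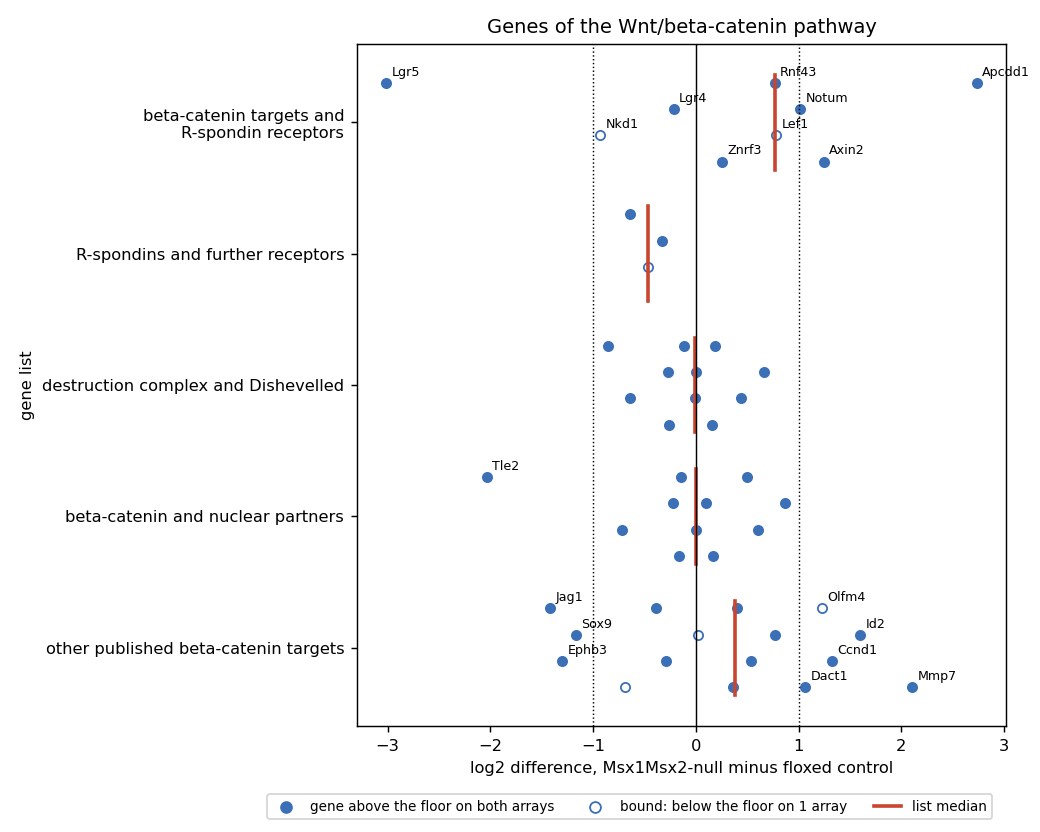
Log2 difference, null minus control, of each measured gene in the 9 beta-catenin targets and R-spondin receptors and in 4 further lists of the pathway, with list medians in red, 2-fold lines dotted and open circles for bounds. By brightest probe sets, the medians of the destruction complex list and of the beta-catenin partner list lie near 0. Of these 2 lists Tle2 alone is past 2-fold, where 7.73% of all genes measured were higher and 4.75% lower. Both target lists spread to either side.

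Markers of other cell types were set beside the genes that were higher in the null. Over all genes measured, 7.73% were at least 2-fold higher and 4.75% at least 2-fold lower. Of 6 smooth muscle markers, 5 were at least 2-fold higher, with a median log2 difference of 1.44 and summed signals of 298.5 and 948.3. On the control array Myh11, Actg2 and Cnn1 were below the floor, whereas Acta2, Tagln and Des were above it, at 162.7, 43.5 and 54.4. Des was the marker of this list that was lower in the null, at -0.40. Of 10 stromal markers none reached 2-fold, but 9 were above 0, where 57.0% of all genes measured were. Their median was 0.54, and their summed signals were 9959.6 and 12539. Of 6 macrophage markers 1 reached 2-fold, with a median of 0.68 and summed signals of 5185 and 5609. Most of that sum was Cd14, at 4260 and 4086. Endothelial markers had a median of 0.21, with 1 of 5 past 2-fold, and summed signals of 240.2 and 331.9. Lef1 is also a T cell gene. Of the 8 markers of T and NK cells with a probe set, Cd3e, Cd3d and Cd3g were above the floor, on the null array alone. Their bounds were 0.14, 0.22 and 1.07, and the list summed to 77.9 and 130.8. Cd247, Cd2, Cd4, Cd8a and Ncr1 were below the floor on both arrays. Of the B and plasma cell markers, Jchain was 13.7-fold higher and Cd79b was above the floor on the null array alone, at a bound of 0.32. Cd79a and Ms4a1 were below the floor on both arrays, and the 4 markers with a probe set summed to 97.6 and 1007. Mesothelial markers were lower, with 4 of 4 below 0, a median of -0.60 and summed signals of 1078 and 761.1. Of all 11662 genes measured, 5011 were below 0. With spike-in scaling, 3 of 6 smooth muscle markers were at least 2-fold higher, where 5.01% of all genes were. No macrophage, endothelial or T and NK cell marker reached 2-fold with it. In addition, 7 of 10 stromal markers were above 0, and the endothelial median was -0.07. Under that scaling, 4093 of all 11661 genes measured were above 0. The part of these cells in the differences of Apcdd1, Axin2, Notum and Lef1 was not tested.

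**Figure D4:**
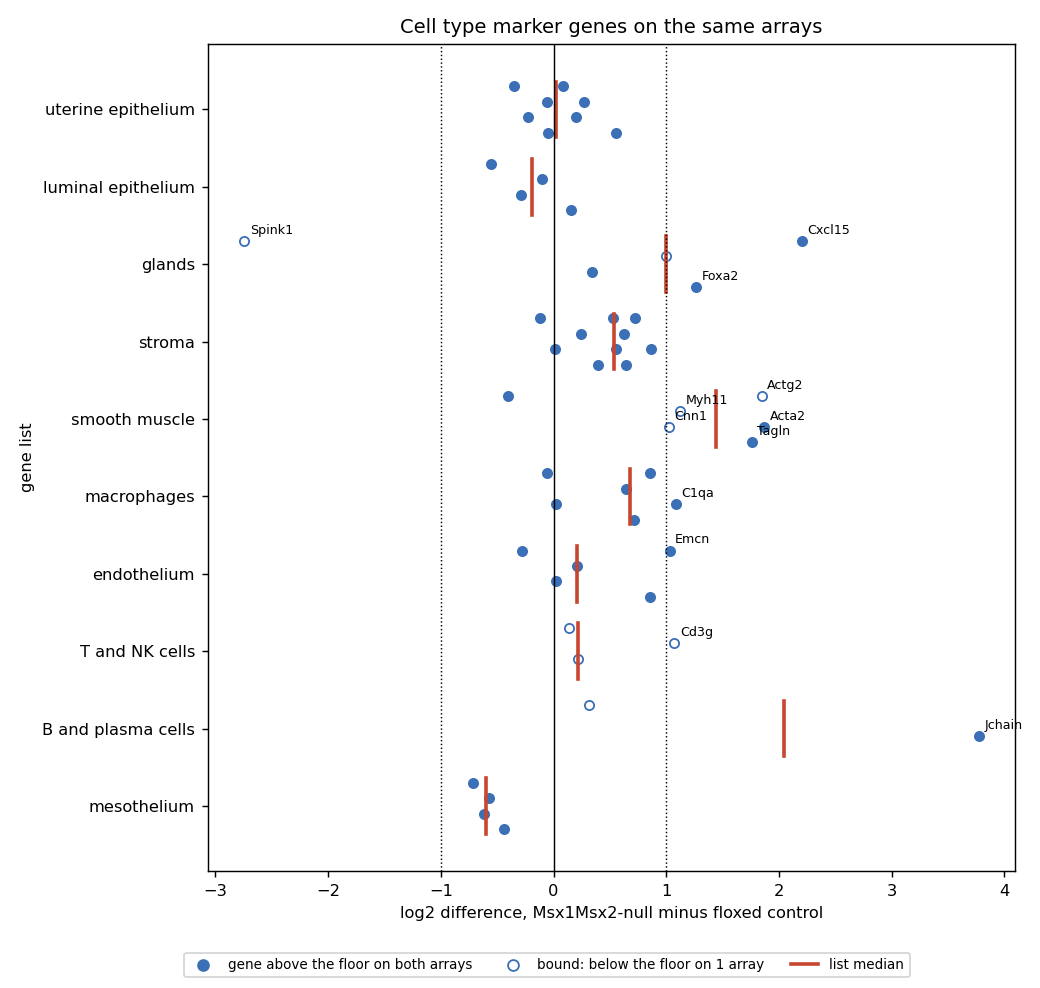
Log2 difference, null minus control, of each measured marker gene in 10 cell type lists, with list medians in red, 2-fold lines dotted and open circles for bounds. General epithelial markers lie around 0, whereas 5 of 6 smooth muscle markers lie past the upper 2-fold line and 9 of 10 stromal markers lie above 0. With spike-in scaling 7 stromal markers were above 0 and 3 smooth muscle markers past 2-fold. The general epithelial markers then had 7 of 8 below 0 and a median of -0.26. Of all genes measured, 7.73% were at least 2-fold higher as reported, and 5.01% with spike-in scaling. Of all genes measured, 57.0% were above 0 as reported, and 4093 of 11661 with spike-in scaling.

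The counts depended on the threshold, the floor and the scaling. At a threshold of 1.5-fold, 5 of 9 genes were higher and 2 lower, where 17.5% and 12.0% of all genes were. At 3-fold, Apcdd1 alone was higher and Lgr5 alone lower, against 2.97% and 1.51% of all genes. With a floor at the 33rd percentile, 8.62, Lef1 joined the higher genes at a log2 difference of 1.82 and Nkd1 the lower genes at -1.03. That made 4 higher and 2 lower, against 9.15% and 5.41% of all genes. With a floor at the 67th percentile, 72.7, Lef1 and Nkd1 could not be compared and Apcdd1 and Lgr5 alone passed 2-fold, against 5.48% and 4.04% of all genes. With spike-in scaling, Apcdd1 was the only higher gene, and Lgr5 and Nkd1 were lower, where 5.01% and 8.72% of all genes were. Apcdd1 and Lgr5 passed 2-fold in each of the 9 alternative settings of scaling, floor and probe set choice. Their log2 differences ran from 2.39 to 2.81 and from -3.29 to -2.05.

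**Figure D5:**
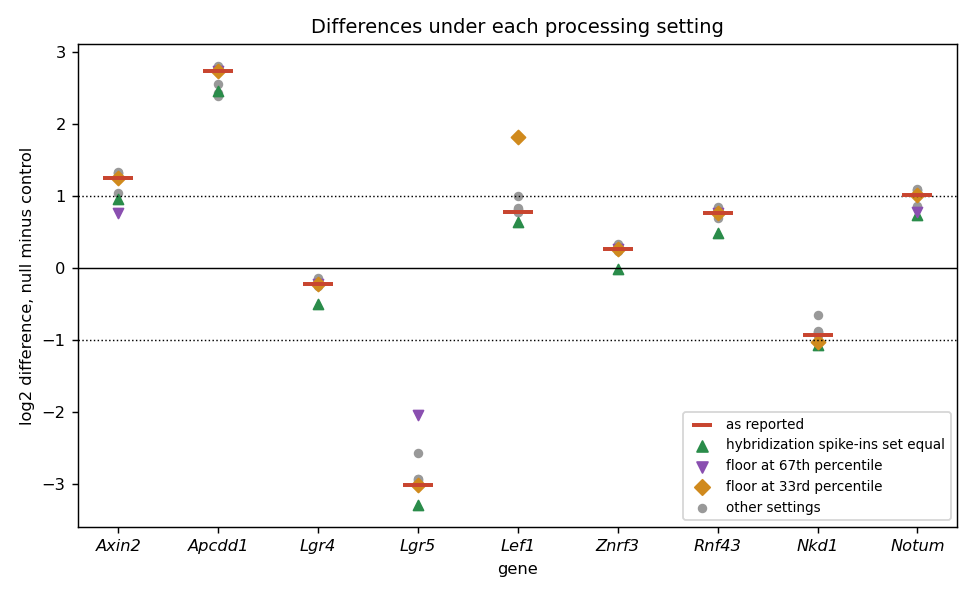
Log2 difference, null minus control, of each of the 9 genes as reported (red bars) and under the alternative scalings, floors and probe set choices, with 2-fold lines dotted. Apcdd1 and Lgr5 lie past the 2-fold lines at every point, Axin2 and Notum straddle the upper line, and Znrf3 touches 0 with spike-in scaling.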

How the data were processed

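Total RNA of the epithelial preparations was amplified from 100 ng with a 3′ kit and hybridised to 1 Affymetrix array per genotype, per the labels. The authors deposited linear signal intensities, for which the submitters' processing notes name MAS5 and Affymetrix Expression Console version 1. Both arrays had a 2% trimmed mean of 150, so differences in total RNA per cell are not visible. No detection calls were used. Of 45101 probe sets, 64 were controls and 34945 named 1 gene in the platform annotation; 10 of 10 chosen symbols were in the RefSeq table (GRCm38.p6).

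Signals below the floor, the 50th percentile of non-control signals, were set to it and taken to log2. A gene took its brightest probe set by mean log2 signal. A difference is null minus control, and "at least" marks a bound against the floor. Differences were counted from 2-fold. No test was run, as each genotype had 1 array, and precision is limited by how few arrays there are. The rule for named genes took all 10 genes, Msx1 and Msx2, pathway list genes past 2-fold and the paralogs Axin1, Lgr6, Nkd2, Tcf7l1 and Tcf7l2. Other pathway genes were added after their values were seen. The genes and lists were chosen with earlier results of these data known. Alternatives covered scaling (array medians, quantile, loess with a span of 0.3, spike-ins), the floor, a pseudocount of 16, the choice of probe sets and the threshold. Scripts (Python 3.11.15, pandas 2.3.3, numpy 2.4.6, statsmodels 0.14.6) were tested on simulated data.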

Additional observations from a re-analysis of the deposited data

How the results depend on the processing

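The number of genes at least 2-fold higher, 3 as reported, was 1 with spike-in scaling, 1 with the 67th percentile floor, 5 at a threshold of 1.5-fold and 1 at 3-fold. The number at least 2-fold lower, 1 as reported, was 2 with spike-in scaling, 2 with the 33rd percentile floor and 2 at 1.5-fold. Under the other alternatives for scaling, floor and probe sets both counts were within 1.5 times the reported ones. The median of the group ran from 0.49 to 0.82. Axin2 stood at 0.77 with the 67th percentile floor, and Lgr5 at -2.05 there and at -2.57 with the pseudocount. A floor acts by construction only on genes with a signal below it. Among the 9 genes, the sole change of sign was that of Znrf3 with spike-in scaling. Among the pathway lists, the count of other targets at least 2-fold lower, 3 as reported, was 1 by the median over probe sets. For R-spondins and further receptors that count, 0 as reported, was 1 with the 33rd percentile floor. Tle2 and Notum have no value once probe sets marked as shared or alternative are dropped. No paired analysis was possible because each genotype has 1 array. No array could be left out for the same reason. Signals near the floor limit Lef1, Nkd1 and Rspo3 to bounds, and Rspo2 and Rspo4 to no value.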

Other observations

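The probe sets that were below the floor on both arrays belong in no comparison and are given as values. The second Axin2 probe set read 4.02 for the control array and 6.31 for the null one. The second Lgr4 probe set read 3.86 and 6.63, and the second Lgr5 probe set 4.79 and 9.05. The second Znrf3 probe set read 8.12 and 3.81. For Nkd1 the 3 dim probe sets read 18.6 and 17.1, 12.5 and 10.4, and 10.7 and 2.37. The dim Apcdd1 probe set read 3.46 and 1.47. The dim Lef1 probe set read 1.53 and 16.8.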
